A study of Gallus gallus with 12 samples.

Results

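Ion channels of the voltage-gated and potassium families were examined in the chicken hypothalamus during and after heat. A gene was included when a probe of the array carried a RefSeq accession whose chicken symbol begins with KCN, CACN or CLCN, or with SCN or HCN followed by a digit. Of the 126 such genes in the reference table, 29 had a named probe (54 probes in all), among 4814 genes named on the array. No HCN gene was among them. Of the 29 genes, 24 gave a signal strong enough to be tested.

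The birds were 12 female broilers of the line Anak_40, full siblings or siblings that share 1 parent, 56 d of age, with 4 in each group and an array for each bird. All birds were reared at 25°C. Control birds (CL) stayed there, heat-stressed birds (HS) were held at 34°C for 24 h, and temperature-recovery birds (TR) had the same 24 h at 34°C followed by 24 h at 25°C. Hypothalamus RNA was labelled with cyanine 3 and hybridized to 1-colour arrays, and each array goes by its group and number (HS1, CL4). All values are log2 signals, quantile-normalized between arrays, and where several probes carried a gene the brightest was taken.

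Voltage-gated sodium and calcium channels open when a neuron is depolarized. The sodium channels carry the rising phase of the action potential, and the calcium channels admit the calcium that triggers transmitter and hormone release. Voltage-gated, calcium-activated, inwardly rectifying and tandem-pore potassium channels repolarize the cell and set its resting potential and firing rate. In the hypothalamus, neurons of the preoptic area change their firing with local temperature, and neurosecretory neurons release their peptides in response to spiking.

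The sample titles name hypothalamus and the treatment protocol female birds, whereas the characteristics fields name spleen, male sex, another age and infection with Marek's disease virus. All 7 oligodendrocyte markers and all 8 astrocyte markers on the array were above background on all 12 arrays. So were 5 of 9 lymphoid and spleen markers. Of the other lymphoid and spleen markers, CD4, CD79B and TLX1 were above background on some arrays, and the B cell factor PAX5 on none. The W-linked gene HINTW, carried by female birds, had signals between 17.47 and 17.93. A slide held the arrays of 1 group, and CL was scanned on another day than HS and TR, and the slide cannot be told apart from the group. The spots above background numbered from 33505 to 36852, the median ratio of signal to background ran from 11.8 to 17.3, and no spot was saturated. In RNA of a whole tissue, fewer cells of a type and less RNA per cell cannot be told apart, which applies to every value below.

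By their brightest probes, no channel gene was differentially expressed (DE) in any comparison. DE means p under 0.05, a Benjamini-Hochberg FDR under 0.15 over all tested probes and a fold change over 1.5, in limma. In HS vs. CL, 0 of 24 channel genes were DE, against 3.57% of all tested probes. The count in HS vs. TR was 0 of 24, against 1.85%. For TR vs. CL it was 0 of 24, against 0.0945%. The methods' t-test at the same limits also gave 0 in each comparison.

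At an unadjusted p under 0.05, 4 of 24 channel genes passed in HS vs. CL, all of them higher in HS: CACNA1B, KCNIP4, SCN1A and KCNAB1. This share of 16.7% stood beside 20.6% of all tested probes, and the share of 16.7% that were higher stood beside 7.98%. In HS vs. TR, 7 genes passed (16.4% of all tested probes did), of which 6 were higher in HS (CACNA1B, KCNA3, KCNAB1, KCNA2, KCNA4 and CACNA2D1, beside 6.54% of all tested probes) and KCNJ2 was lower (beside 9.86%). Between TR and CL, KCNA3 passed and was lower in TR, where 7.77% of all tested probes passed, 3.8% lower and 3.97% higher in TR. Both comparisons with HS share the HS arrays, so their values are not separate evidence.

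The median log2 change of the 24 channel genes was 0.14 for HS vs. CL, 0.16 for HS vs. TR and 0.04 for TR vs. CL. Over all tested probes the medians were -0.04, -0.04 and -0.00, and over the brightest probes of all named genes they were -0.01, -0.01 and -0.00. Channel genes with a log2 change above 0 numbered 14, 16 and 13 of 24, where 43.6%, 42.4% and 49% of all tested probes were above 0. Of the named genes, 48.8%, 47.8% and 49% were. KCNJ3 is among the 14 and the 16, and it was tested only because HS, its brightest group, passed the filter. The median in TR vs. CL was -0.03 with arrays scaled to their 75th percentile, so that it has no direction that holds across scalings. The plot of log2 changes by channel class shows the spread of these values around 0.

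**Figure D1:**
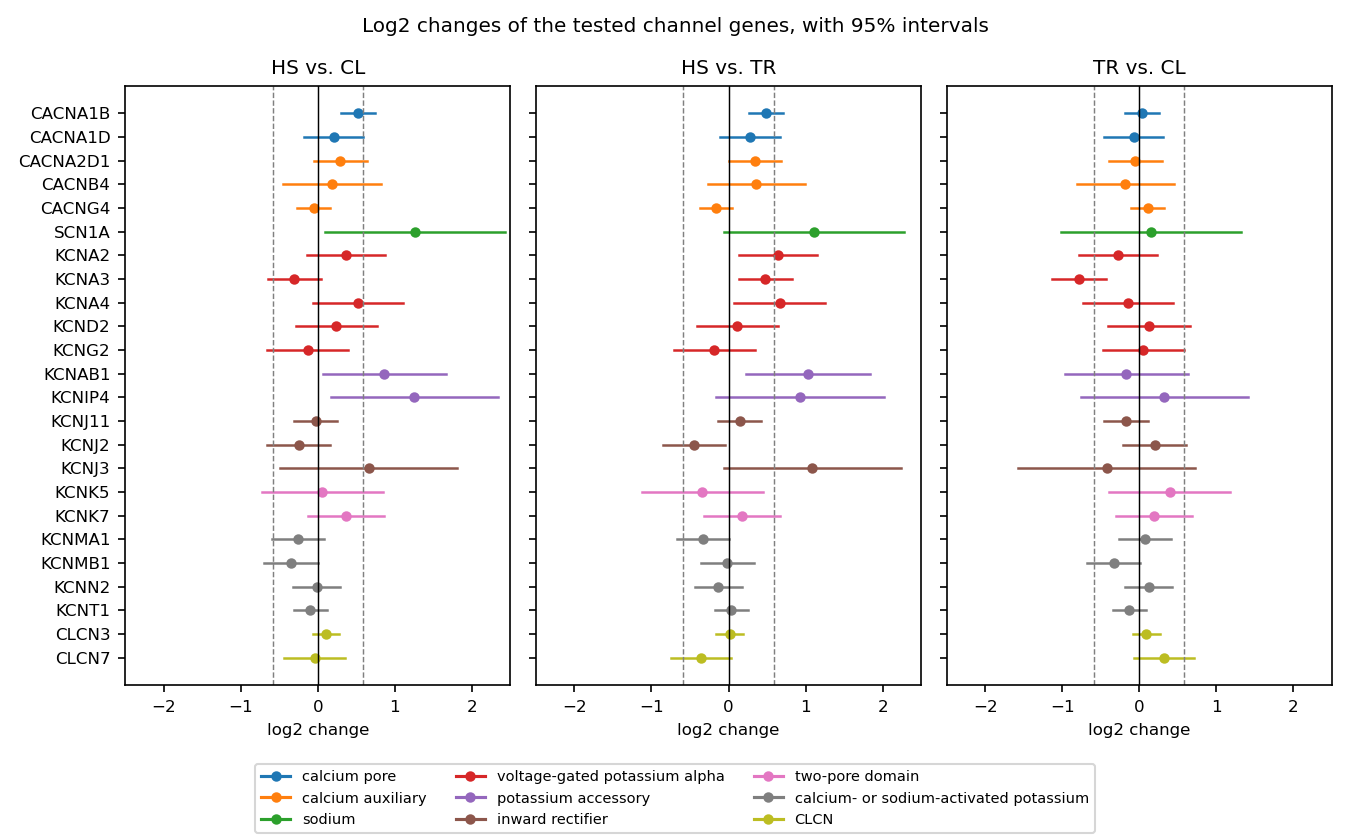
Log2 change (x axis) of each of the 24 tested channel genes (y axis, coloured by channel class) in the 3 comparisons. Points are limma estimates, bars are 95% intervals, n = 4 arrays per group, and dashed lines mark a fold change of 1.5. CACNA1B has a short interval above 0 in both comparisons with HS, SCN1A and KCNIP4 have wide ones, and KCNA3 lies at -0.78 in TR vs. CL.

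Of the calcium channel pore subunits, CACNA1B had the smallest p of the set in both comparisons with HS. CACNA1B encodes the pore of the N-type calcium channel, which opens at presynaptic terminals to trigger transmitter release. Its signal was 9.19, 9.39, 9.35 and 9.41 on the HS arrays, 8.84, 8.92, 8.85 and 8.80 on the TR arrays, and 9.05, 8.58, 8.89 and 8.76 on the CL arrays. Every HS array stood above every TR and every CL array, and TR and CL overlapped. The difference in HS vs. CL was 0.52 on the log2 scale (SE 0.10, 95% interval 0.30 to 0.74, 1.43-fold), with an adjusted p of 0.0344. In HS vs. TR it was 0.48 (SE 0.10, 0.26 to 0.70, 1.40-fold), with an adjusted p of 0.0613. Both passed the p and FDR limits and stayed under the fold limit. Without a fold limit, 11.1% of all tested probes passed for HS vs. CL and 4.62% for HS vs. TR, and CACNA1B was the channel gene that did in each. TR and CL differed by 0.03, with an interval from -0.19 to 0.25.

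CACNA1B has 4 probes, and the second brightest, A_87_P058006, was the DE probe among the 45 channel probes tested. This probe read 6.69, 7.46, 8.55 and 9.90 on the HS arrays, 5.59, 6.39, 6.71 and 6.21 on the TR arrays, and 7.38, 4.55, 5.88 and 5.80 on the CL arrays, where it was above background on 3 of 4. HS3 and HS4 stood above all other arrays, whereas HS1 lay below CL1, so that HS and CL overlapped. It rose by 2.25 in HS vs. CL (SE 0.69, 0.74 to 3.75, 4.75-fold, adjusted p = 0.105) and differed by 1.92 in HS vs. TR (SE 0.69, 0.42 to 3.43, adjusted p = 0.205). This call did not hold without HS3 (2.11, adjusted p = 0.235), HS4 (1.66, 0.216), CL2 (1.80, 0.228), CL3 (2.24, 0.183) or CL4 (2.21, 0.172). The difference from TR passed the limits without HS1 (2.41, 0.106). The other probes of CACNA1B were above background on none of the 12 arrays, as the plot of its probes shows. Without CL1, the brightest probe also passed the fold limit in HS vs. CL (0.59, adjusted p = 0.0264).

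**Figure D2:**
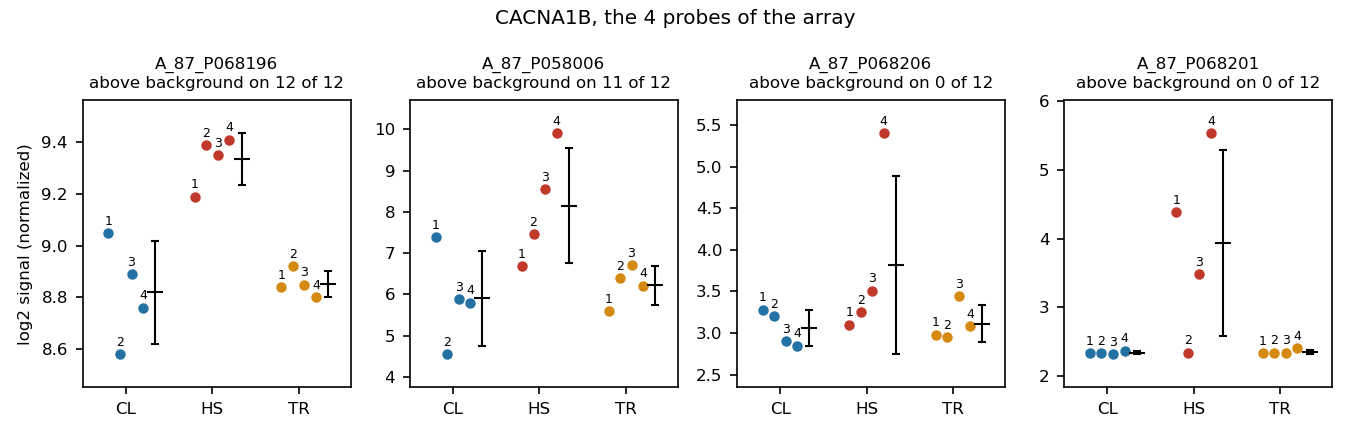
Normalized log2 signal (y axis) of the 4 CACNA1B probes by group (x axis), with 1 point per array, numbered by replicate, and the mean with its SD as a bar (n = 4). The brightest probe separates HS from CL and TR within a span under 1, the second brightest spreads from 6.69 to 9.90 in HS, and the remaining probes are below background throughout.

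CACNA1D encodes the pore of an L-type calcium channel that opens at comparatively negative potentials and contributes to pacemaking. HS exceeded CL by 0.21 (-0.18 to 0.59) and TR by 0.28 (-0.10 to 0.66), and TR vs. CL gave -0.07 (-0.46 to 0.31). HS4 at 11.63 and HS3 at 11.14 were its highest arrays, and the other arrays lay between 10.58 and 11.07. Its 4 probes all passed the filter and differed in direction in HS vs. CL, from -0.14 to 0.29.

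Of the auxiliary subunits, CACNA2D1, which promotes the surface delivery of calcium channel pores, passed p under 0.05 in HS vs. TR. It read 10.68, 10.82, 10.98 and 11.34 in HS, 10.73, 10.43, 10.76 and 10.53 in TR and 10.39, 10.91, 10.58 and 10.76 in CL. The groups overlapped. The difference was 0.34 in HS vs. TR (SE 0.16, adjusted p = 0.302) and 0.29 in HS vs. CL (-0.05 to 0.64). For CACNB4, the cytoplasmic beta subunit, the interval in HS vs. CL ran from -0.45 to 0.81. CACNG4, whose product in mammals accompanies AMPA-type glutamate receptors, differed by -0.05 (-0.27 to 0.16).

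SCN1A, an alpha subunit that carries the sodium current of action potentials, was the sodium channel gene with a named probe. Its signal was 5.77, 6.24, 7.40 and 8.50 in HS, 5.65, 5.90, 5.70 and 6.24 in TR, and 6.51, 4.82, 6.01 and 5.53 in CL. Its SD in HS, 1.22, was the largest of any tested channel gene,  against 0.27 in TR and 0.72 in CL. HS3 and HS4 exceeded all arrays of the other groups, and HS1 and HS2 lay among them. HS vs. CL gave a difference of 1.26 (SE 0.53, 0.10 to 2.43, 2.40-fold, adjusted p = 0.210), and HS vs. TR gave 1.11 (-0.06 to 2.27, adjusted p = 0.328). Without HS4 it was 0.75 in HS vs. CL, and without HS1 it was 1.66 and passed all limits (adjusted p = 0.0998).

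The accessory subunits of potassium channels had the largest medians of any class with more than 1 tested gene. The median of KCNIP4 and KCNAB1, the tested genes of the class, was 1.06 for HS vs. CL and 0.98 for HS vs. TR. KCNIP4 encodes a calcium-binding protein that modulates A-type channels of the KCND family. It read 8.26, 8.44, 9.04 and 9.99 in HS, 7.13, 7.89, 8.42 and 8.57 in TR, and 8.64, 6.57, 7.45 and 8.04 in CL. HS4 was highest and CL2 lowest, and CL1 lay above HS1 and HS2. HS differed from CL by 1.25 (SE 0.50, 0.17 to 2.34, 2.39-fold, adjusted p = 0.183) and from TR by 0.93 (-0.16 to 2.02, adjusted p = 0.378), and TR differed from CL by 0.33 (-0.76 to 1.41). It passed all limits in HS vs. CL without HS1 (1.48, adjusted p = 0.144) or without CL1 (1.58, 0.125), and was 0.90 without HS4 and 0.89 without CL2.

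KCNAB1 encodes a beta subunit that gives channels of the KCNA family faster inactivation. Its signal was 10.59, 10.98, 11.74 and 12.40 in HS, 10.61, 10.04, 10.58 and 10.36 in TR, and 10.68, 9.82, 10.90 and 10.85 in CL. All HS arrays but HS1 were above all arrays of the other groups. HS differed from CL by 0.86 (SE 0.36, 0.06 to 1.66, adjusted p = 0.211) and from TR by 1.03 (SE 0.36, 0.23 to 1.83, 2.04-fold, adjusted p = 0.201). A second probe of KCNAB1 gave 0.91 and 0.78. Without HS1 the gene passed all limits in both comparisons (1.14, adjusted p = 0.0983, and 1.31, adjusted p = 0.0960), and without HS4 its differences were 0.54 and 0.71.

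Among the alpha subunits of voltage-gated potassium channels, 5 of 8 genes on the array were tested. At p under 0.05, 3 of them (KCNA2, KCNA3 and KCNA4) were higher in HS than in TR, where 6.54% of all tested probes were. KCNA3 encodes a delayed-rectifier subunit best known from T lymphocytes and also found in neurons and microglia. It read 8.54, 8.58, 8.35 and 8.52 in HS, 8.22, 8.11, 7.97 and 7.76 in TR, and 8.89, 9.22, 8.66 and 8.43 in CL. All 4 TR arrays were below all HS arrays and all CL arrays. Against CL the TR difference was -0.78 (SE 0.16, -1.13 to -0.44, 1.72-fold), at an adjusted p of 0.186, with the FDR limit the unmet condition. In HS vs. TR it was 0.48 (0.13 to 0.82, adjusted p = 0.178), and in HS vs. CL it was -0.30 (-0.65 to 0.04). With normexp background correction KCNA3 was DE in TR vs. CL (-0.69, adjusted p = 0.121) and without CL4 (-0.91, 0.112), and its adjusted p over all alternatives ran from 0.112 to 0.487.

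Because lymphocytes and microglia also carry KCNA3, their markers were read on the same arrays. The 6 tested lymphoid and spleen genes had mean signals of 9.46 to 10.08 in TR and 9.82 to 10.09 in CL, with a median log2 change of -0.25 and 1 of 6 above 0. The 3 microglia genes had mean signals of 8.66 to 9.14 in TR and 8.69 to 9.45 in CL, with a median of -0.03. None of these 9 genes was DE in TR vs. CL, and their part in the KCNA3 values was not tested.

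KCNA2 and KCNA4 encode subunits of the dendrotoxin-sensitive and of the rapidly inactivating KCNA channels of axons. KCNA2 read 10.96, 11.31, 12.21 and 11.24 in HS, 11.08, 10.70, 10.91 and 10.46 in TR, and between 11.03 and 11.09 in CL. HS3 stood alone at the top, and the HS and TR arrays overlapped. The difference was 0.64 in HS vs. TR (SE 0.23, 0.14 to 1.14, adjusted p = 0.205), and the other probes of KCNA2 gave 0.48 and 0.27. KCNA4 read 8.45, 8.62, 9.21 and 9.76 in HS, 8.26, 8.14, 8.60 and 8.38 in TR, and 8.49, 8.03, 8.88 and 8.56 in CL. Its difference was 0.67 in HS vs. TR (0.08 to 1.25, adjusted p = 0.250) and 0.52 in HS vs. CL (-0.07 to 1.11, adjusted p = 0.296). Without HS1, KCNA2 (0.80, adjusted p = 0.109) and KCNA4 (0.85, 0.132) passed all limits in HS vs. TR. Over all alternatives the KCNA2 difference in HS vs. TR ran from 0.38 to 0.80, and without HS4, KCNA4 was 0.42.

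The dimmest probe of KCNA4, A_87_P083721, was above background on all 4 HS arrays, on no TR array and on 1 CL array. It was at least 1.73-fold higher in HS than in TR, with the TR arrays set at the lowest signal counted as above background or at their own reading where that was higher. It entered the fit through HS, the group where it was high, and its direction is no support for that of the brighter probes. The second brightest KCNA4 probe gave 0.72 in HS vs. TR and 0.52 against CL. KCND2, an A-type channel subunit of dendrites, differed by 0.24 in HS vs. CL (-0.29 to 0.77), and KCNG2, a modifier that forms no channel alone, by -0.13 (-0.66 to 0.39).

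**Figure D3:**
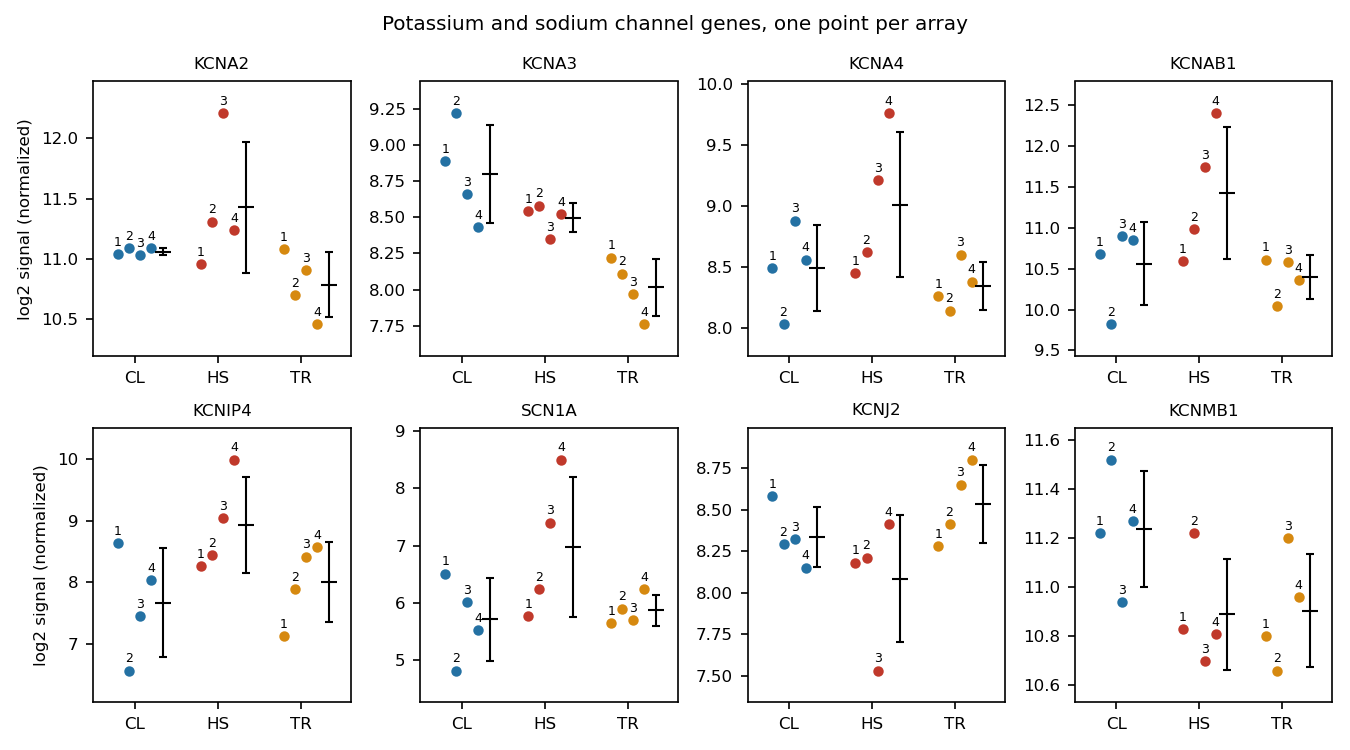
Normalized log2 signal (y axis) of 8 potassium and sodium channel genes by group (x axis), with 1 point per array, numbered by replicate, and the mean with its SD as a bar (n = 4). HS3 or HS4 is the highest array for KCNA2, KCNA4, KCNAB1, KCNIP4 and SCN1A, and all 4 TR arrays of KCNA3 lie below the HS and CL arrays.

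Inward rectifiers set the resting potential and couple it to transmitters and metabolism. KCNJ2, the classical strong rectifier, was the channel gene lower in HS than in TR at p under 0.05. It read 8.18, 8.21, 7.53 and 8.41 in HS, 8.28, 8.41, 8.65 and 8.80 in TR, and 8.58, 8.29, 8.32 and 8.15 in CL. HS3 was the lowest array and HS and TR overlapped. The difference was -0.45 in HS vs. TR (SE 0.19, -0.86 to -0.04, adjusted p = 0.261) and -0.25 in HS vs. CL (-0.66 to 0.16). KCNJ3 is a subunit of the channel opened by G protein-coupled receptors for inhibitory transmitters. It was above background on 4 HS, 2 TR and 3 CL arrays. It read 5.37, 5.71, 6.03 and 7.67 in HS, 4.39, 5.59, 4.66 and 5.80 in TR, and 6.59, 5.22, 5.24 and 5.07 in CL. Its interval in HS vs. TR ran from -0.06 to 2.23. KCNJ3 entered the fit through HS, the group where it was highest, so its direction in the comparisons with HS is no support for a rise. KCNJ11, the pore of the ATP-sensitive channel, differed by -0.03 in HS vs. CL (-0.31 to 0.25) and by -0.17 in TR vs. CL (-0.45 to 0.11).

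Tandem-pore channels carry background potassium currents. KCNK7 differed by 0.37 in HS vs. CL (SE 0.22, -0.12 to 0.86), with signals of 11.98, 11.78, 12.16 and 12.12 in HS and 11.83, 11.01, 11.87 and 11.85 in CL. CL2 was well below the other arrays, and HS2 lay below 3 of the CL arrays. KCNK5 differed by 0.06 (-0.73 to 0.84). Its TR arrays ranged from 5.53 to 7.40.

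The potassium channels opened by calcium or sodium were the class in which all 4 tested genes had log2 changes below 0 in HS vs. CL by their brightest probes. These ran from -0.35 to -0.01, with a median of -0.17, and 43.6% of all tested probes were above 0. By the brightest probe none had p under 0.05. KCNMB1 encodes a beta subunit that raises the calcium sensitivity of the large-conductance channel and is best known from smooth muscle. Its signals were 10.83, 11.22, 10.70 and 10.81 in HS, 10.80, 10.66, 11.20 and 10.96 in TR, and 11.22, 11.52, 10.94 and 11.27 in CL. Its highest array was CL2, and all groups overlapped. The difference was -0.35 in HS vs. CL (SE 0.16, -0.69 to 0.00, adjusted p = 0.243), -0.33 in TR vs. CL (-0.68 to 0.01, adjusted p = 0.653) and -0.01 in HS vs. TR (-0.36 to 0.33). A second KCNMB1 probe, A_87_P261623, gave -0.49 in HS vs. CL (SE 0.16, -0.84 to -0.14, 1.40-fold, adjusted p = 0.123), which passed the p and FDR limits and not the fold limit. The 6 smooth muscle and vessel markers had mean signals of 10.91 to 11.48 in HS, 10.94 to 11.49 in TR and 10.71 to 11.37 in CL, so that the groups overlapped. MYH11, smooth muscle myosin, was DE among them, higher in HS in both comparisons with HS, and the part of smooth muscle in the KCNMB1 values was not tested.

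KCNMA1, the pore of the large-conductance channel, differed by -0.25 in HS vs. CL (-0.59 to 0.08) and by -0.33 in HS vs. TR (-0.67 to 0.00, adjusted p = 0.310), and its second probe gave -0.21 and -0.29. KCNN2, a small-conductance channel of the afterhyperpolarization, differed by -0.01 in HS vs. CL (-0.32 to 0.29). KCNT1, the sodium-activated channel, differed by -0.09 (-0.31 to 0.12). Its probes disagreed in sign in each comparison. The second probe gave 0.13 in HS vs. CL. In TR vs. CL the brightest gave -0.13 (-0.34 to 0.08) and the second 0.32.

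CLCN3 and CLCN7 encode chloride and proton exchangers of endosomes and lysosomes, not voltage-gated channels of the surface. CLCN7 read 12.05, 12.09, 11.95 and 11.46 in HS, 12.25, 12.23, 12.30 and 12.20 in TR, and 12.04, 12.32, 11.46 and 11.89 in CL. All HS arrays were below all TR arrays, with a difference of -0.36 (-0.75 to 0.03, adjusted p = 0.340). CLCN3 differed by 0.11 in HS vs. CL (-0.06 to 0.28). Another CLCN3 probe, A_87_P218938, gave -1.11, but outlier spots left it with 1 HS array and 2 CL arrays.

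The arrays of HS and another group did not overlap for 1 of 24 channel genes in HS vs. CL (CACNA1B, against 11.9% of all tested probes) and 3 in HS vs. TR (CACNA1B and KCNA3 above, CLCN7 below, against 11.4%). Between TR and CL the gene without overlap was KCNA3, against 5.29%. As shares of the 24 these are 4.17%, 12.5% and 4.17%.

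There were 5 genes without a test, because no group had them above background on all 4 arrays. KCNG4, another modifier subunit, was above background on none of the 12. KCND3, an A-type channel subunit, was above background on HS4 alone, and KCNIP2, a second modulator of such channels, on 1 TR and 2 CL arrays. KCNJ4, an inward rectifier, was above background on 3 HS, 2 TR and 3 CL arrays. KCNA10 had a pair of probes that pointed in opposite directions. Probe A_87_P054941 was above background on 2 HS, 3 TR and 0 CL arrays, with mean readings of 5.24 in HS, 5.31 in TR and 3.54 in CL. Probe A_87_P035200 was above background on 3 CL arrays and on none in HS or TR, with mean readings of 5.21 in CL, 3.75 in HS and 3.93 in TR. No group was above background on all 4 arrays for either probe, so no least fold change is given. Without TR1 the first of these probes passed the filter through TR. A call in HS vs. CL was then made against CL arrays with no reading above background, so that the readings above are the values given for it.

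Where a gene had more than 1 tested probe, its probes agreed in sign more often in the comparisons with HS than in TR vs. CL. The probes counted include the dimmest of KCNA4, which entered the fit through HS and whose direction is no support. Of 14 such genes, all probes had the same sign at 10 for HS vs. CL, 11 for HS vs. TR and 8 for TR vs. CL. The exceptions in the first were CACNA1D, CLCN3, KCNG2 and KCNT1. The median range between probes of a gene was 0.22 in that comparison.

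Channel genes had larger SDs between birds of a group than named genes did as a whole, a difference that was not tested. Their median SD in HS, TR and CL was 0.29, 0.21 and 0.27, against 0.17, 0.15 and 0.17 over the brightest probes of all named genes. The median SE of a channel gene's log2 change was 0.18, from 0.08 for CLCN3 to 0.53 for SCN1A, against 0.14 over all tested probes.

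HS4 and CL2 stood at the ends most often. HS4 held the highest signal of the 12 arrays for 11 of 24 channel genes and the lowest for 0. Of 4265 named genes, 15.8% were highest and 16.7% lowest there. CL2 held the lowest signal for 11 of 24 and the highest for 3, and 14.8% of named genes were lowest and 12.8% highest there. HS4 also had the fewest spots above background (33505). Its lowest signal counted as above background was 5.56, against 4.12 to 4.98 on the other arrays. No channel gene was DE in any comparison without HS4, without CL2, or without HS2 and CL2 together. The number with p under 0.05 in HS vs. CL was 1 without HS4, where 16.8% of all tested probes passed, and 2 without CL2, where 17% did. It was 3 of the 25 then tested without HS2 and CL2, where 18.1% did. The plot by array shows these counts beside the neuronal markers.

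**Figure D4:**
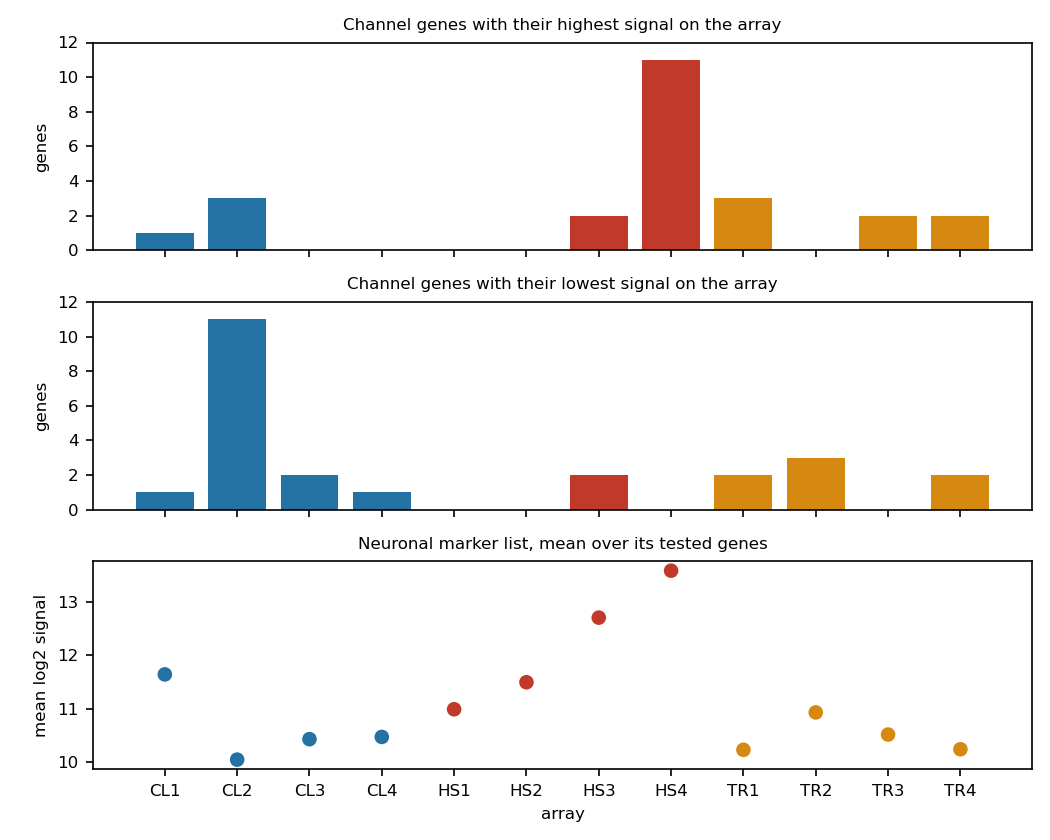
For each of the 12 arrays (x axis), the number of the 24 tested channel genes with their highest signal there (top bars), with their lowest signal there (middle bars), and the mean log2 signal of the 8 tested neuronal markers (bottom points). HS4 has 11 highest channel genes and the highest neuronal mean of 13.58, and CL2 has 11 lowest and the lowest mean of 10.05.

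Markers of neurons, the cells in which most of these channels act, had their highest values on HS4, as many channel genes did. The mean signal of the 8 tested neuronal markers was 10.99 to 13.58 in HS, 10.23 to 10.93 in TR and 10.05 to 11.64 in CL. HS4 was highest for 8 of 8 markers, and CL1 had the highest and CL2 the lowest mean of the CL arrays. The median deviation of the channel genes from each gene's mean was highest on HS4 (0.20), CL1 (0.13) and HS3 (0.12). It was lowest on TR2 (-0.15) and CL2 (-0.13). HS4, HS3 and CL1 also had the highest neuronal means (13.58, 12.70 and 11.64), while TR2 had the highest neuronal mean of the TR arrays. In HS vs. CL, 10 of 24 channel genes had log2 changes below 0. All 8 neuronal markers had log2 changes above 0 in HS against CL (median 1.38) and against TR (median 1.50). The neurofilament genes NEFL and NEFM and the growth-associated gene STMN2 were DE in both. Hypothalamic peptide genes were also highest on HS4, at 5 of 5 tested, and CRH was above background on no array. In HS vs. CL, AVP (5.45, adjusted p = 0.138 in limma) and GNRH1 (1.55, adjusted p = 0.0568) were DE and higher in HS. No peptide gene was DE in the other comparisons. AVP spread from 7.69 to 17.68 within CL. Of the 3 tested midbrain dopaminergic genes, TH was DE and higher in HS in both comparisons. TH was above background on some arrays only, so its change rests in part on readings not above background. No tested choroid plexus, erythroid, pituitary, astrocyte or oligodendrocyte gene was DE in any comparison. The part of the neuronal share of the tissue in the channel values was not tested.

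Striated muscle markers were highest on HS2 and on CL2, the array with the lowest neuronal mean. The mean of the 7 tested muscle genes was 13.86 on CL2 and 12.28 on HS2, against 6.01 to 9.17 on the other 10. CL2 was also highest for 4 of 4 tested erythroid genes, with a mean of 15.02 against 11.81 to 14.18 on the others. The part of muscle and blood RNA in the channel values was not tested. Without HS2 and CL2, 25 channel genes were tested, with medians of 0.19 against CL and 0.25 against TR for HS. For TR vs. CL the median was -0.11 without both and -0.08 without CL2, where it had been 0.04.

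Genes that work with these channels were read from a list of 40 partners, of which 12 were on the array and all were tested. They include sodium channel modulators of the FGF family, calmodulins, the sodium pump, and receptors and adaptors at the same membranes. FGF14 was above background on some arrays only, and the other partners on all 12. None was DE in any comparison, and 10 of 12 had log2 changes above 0 in HS against CL (median 0.31) and against TR (median 0.26). Of all tested probes, 43.6% and 42.4% were above 0. Between TR and CL, 5 of 12 partners were above 0 (median -0.06), beside 49% of all tested probes.

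ATP1B1, the beta subunit of the sodium pump that restores the gradients which channels use, read 15.36, 15.42, 16.32 and 16.78 in HS, 15.20, 15.16, 14.90 and 15.26 in TR, and 15.47, 15.30, 15.06 and 15.01 in CL. HS3 and HS4 were its highest arrays, and CL1 lay above HS1 and HS2. Every HS array was above every TR array, and 11.4% of all tested probes did not overlap in that comparison. No naming rule singled out ATP1B1 among the 12 partners, and it was not the most changed of them. Their log2 changes ran from -0.24 to 1.49 against CL and from -0.22 to 1.69 against TR. For ATP1B1, HS differed from CL by 0.76 (SE 0.28, 0.15 to 1.37, adjusted p = 0.160 in limma) and from TR by 0.84 (SE 0.28, 0.23 to 1.45, adjusted p = 0.179). The mean of the 12 partners was 12.37 to 13.13 in HS, 12.24 to 12.31 in TR and 12.08 to 12.47 in CL. It was highest on HS4 and lowest on CL2. By count, HS4 held the highest signal and CL2 the lowest for 11 of 24 channel genes each.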

How the data were processed

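Each of the 12 arrays (Agilent 44 K chicken design, 1 colour) held the cRNA of 1 bird. The authors extracted the spots with Feature Extraction 10.7.3.1 and deposited, per spot, the processed intensity after background subtraction and detrending, median intensities of spot and local background, and marks for background, outliers and saturation. A deposited table of the authors holds log2 values that GeneSpring had quantile-normalized, in which 65.6% of 43606 entries matched the feature of their own number, so that each entry was matched to its probe by its values. The files' annotation build differs from that of the reference, so no coordinates are given.

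From the processed intensities, log2 values were quantile-normalized over 43803 spots besides controls. Outlier spots were then left out, and the spots of each probe were averaged. This gave 43603 probes, with 420 values of 220 probes left out. Accessions without versions were matched to RefSeq transcripts of the assembly GRCg7b, which named 10185 probes. Probes with Ensembl accessions carry no name. The test took probes above background on all 4 arrays of a group, whichever group it was (34930 probes). Limma 3.58.1 in R 4.3.3 (lmFit, eBayes) fitted 3 groups to the 12 arrays, with Benjamini-Hochberg adjustment over all tested probes, and the step was tested on simulated data. Intervals are 95% intervals of this fit. Arrays have no counting depth, and precision is limited by how many there are. Plots used matplotlib 3.10.9 with Python 3.11.15.

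Genes named were those DE in a comparison, the 6 with the smallest p in each, the gene of each class with the smallest p over the groups, and those above background on some arrays; others are given to account for every member. The members, the classes, the marker and partner lists and the alternatives were chosen with earlier results of these data known. Alternatives were the 75th percentile scaling, normexp with an offset of 50, other filters, limits, probes and fits, the deposited table, the replicate block, and leaving out each array.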

Additional observations from a re-analysis of the deposited data

Results flagged for a closer look

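Across the named channel genes, 60 groups of 4 arrays were screened for an array far from the other 3, by the gap to its nearest neighbour as a share of the range of the group, at Dixon's critical value of the 95% level. Chance exceeds it in about 5% of groups, and 2 groups did. KCNK7 in CL was at 11.01 on CL2, where the other CL arrays lay between 11.83 and 11.87 (0.953 of the range). KCNJ3 in CL was at 6.59 on CL1, where the other CL arrays lay between 5.07 and 5.24 (0.888 of the range). CL1 had the highest neuronal mean of the CL arrays and CL2 the lowest, and the part of neuronal RNA in these readings was not tested.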

How the results depend on the processing

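The count of DE channel genes, 0 in each comparison, moved with these alternatives. In HS vs. CL it was 3 with no FDR limit (KCNAB1, KCNIP4 and SCN1A), and 1 with no fold limit, by the second brightest probe, and by the mean of all tested probes with a value on every array, CACNA1B in each (1.38 by that mean, adjusted p = 0.0833 in limma). In HS vs. TR it was 3 with no FDR limit (KCNAB1, KCNA2 and KCNA4) and 1 with no fold limit (CACNA1B). In TR vs. CL it was 1 with no FDR limit, with normexp background correction, and by the t-test with no FDR limit, KCNA3 in each. Leaving out 1 array gave counts of 0 to 3 in HS vs. CL, 0 to 3 in HS vs. TR and 0 to 1 in TR vs. CL. Of the log2 changes followed, KCNT1 in TR vs. CL turned from -0.13 to 0.32 by the second probe and 0.10 by the mean of probes, and CLCN3 from 0.09 to -0.03 by the second probe. These turns follow from which probe was read, and no other followed change reversed. With the replicate block the counts were 0, 0 and 0, and no call changed. The replicate numbers were not taken to pair the birds, since 3 of 12 same-numbered pairs had a correlation of deviations over 0.1. With each array counted in each of its comparisons, 5 of 24 cases correlated best with their own number. Adjusted p-values over all alternatives ran from 0.0264 to 0.131 for CACNA1B in HS vs. CL and from 0.0354 to 0.205 in HS vs. TR. They ran from 0.125 to 0.369 for KCNIP4, from 0.0998 to 0.418 for SCN1A and from 0.0983 to 0.413 for KCNAB1 in HS vs. CL. Leaving out arrays for the second CACNA1B probe was chosen after seeing the data. No scaling moved the median of all tested probes by over 0.1. Probes near background limit KCNJ3, KCNA10, KCND3, KCNIP2 and KCNJ4, and nothing is known here of the channel genes without a named probe.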
